A study of Mus musculus with 4 samples.

Results

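The genes of cholesterol and fatty acid synthesis were followed in stem cells of mouse skin squamous cell carcinoma, sorted as positive or negative for a reporter of TGF-β signalling. The 31 genes were given by name as those of the mevalonate arm, the squalene to cholesterol arm, sterol sensing and transport, and the fatty acid arm. Of the 31, 29 had a value and 28 were tested, among 31729 genes with a value and 11973 genes tested. Hmgcs1 and Mvd were not analysed here. The reporter positive group (mCherry Pos, n = 2 libraries) and the reporter negative group (mCherry Neg, n = 2 libraries) each had 1 library from experiment 1 and 1 from experiment 2. All 4 libraries came from primary tumours of skin epidermis in mice of strain C57BL/6 X FBV that carried TetO-Hras and LV-rtTA3-TGF-beta reporter constructs. TetO-Hras is an Hras transgene, an oncogene of skin tumours, that answers to the rtTA3 activator, and LV marks a lentivirus. Both groups carried the activator and the oncogene. Cells were gated on integrin α6 and CD44 after removal of lineage positive cells, and were then split by reporter fluorescence. The sources used here do not give the age of the mice, or whether the experiments used separate animals or pooled tumours, and p-values therefore reflect only how far these libraries lie apart.

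Cells build cholesterol from acetyl-CoA. The mevalonate arm makes isoprenoid units, which are joined into squalene, closed into the ring of lanosterol and trimmed to cholesterol. Fatty acids are built from the same acetyl-CoA and are then lengthened and desaturated. SREBP transcription factors, encoded by Srebf1 and Srebf2, switch on genes of both routes when membrane sterol is low, and SCAP and the INSIG proteins control their release from the endoplasmic reticulum. In epidermis, cholesterol, fatty acids and ceramides form the lipid barrier of the outer layers.

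Reporter positive cells held more RNA of the early sterol route. The 4 genes of the mevalonate arm that were above 0 in every library, Mvk, Pmvk, Idi1 and Fdps, passed as higher, as did Lss of the squalene arm and Acss2 of the fatty acid arm. These are 6 of the 25 genes above 0 in every library, of which 0 were lower and 19 did not pass. Over all such genes, 2.43% were higher and 2.46% lower. Acat2 passed as well, but it met the filter on low values through the positive libraries alone and was listed at 0 in both negative ones, so its call adds nothing to that count. With it and the other genes listed at 0 in some library, 7 of the 28 genes tested were higher and 0 lower, where 2.68% and 2.71% of all genes tested were. At an unadjusted p under 0.05, 16 of the 25 genes passed, against 2974 of 11504 genes above 0 in every library. Both positive libraries lay above both negative libraries for 18 of the 25 genes and below them for 2, and the groups overlapped for 5. Among all genes above 0 in every library these shares were 15.1% above and 43.4% below (15.2% and 42.7% of all genes tested). The median change was 0.70 for the 25 genes and -0.18 for all genes. A change is the positive mean less the negative mean of log2(FPKM + 1), which understates the change of low genes. FPKM is a fragment count scaled by transcript length and sequencing depth. Calls are limma's, at an adjusted p (Benjamini-Hochberg over all genes tested) of 0.05. With 2 libraries a group, these calls rest on few degrees of freedom, and none of the 6 genes passed in any of the 4 fits that left out 1 library. None of the 6 passed without a filter on low values, from annotated forms alone, or from the most abundant form of each gene, where Acat2 passed on its zeros.

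The experiment number in the titles was taken to mark a shared experiment. With it as a block, 14 of the 28 genes were higher, Acat2 among them, and 1 was lower, where 4.45% and 7.43% of all genes were. With the block and median-of-ratios scaling together 7 were higher, Acat2 among them, and 0 lower, where 2.06% and 1.06% of all genes were. Of the genes that the block alone added, Insig1 still passed in that fit and the others did not, and Mvk missed the threshold (adjusted p = 0.0506). The block added Sqle, Cyp51, Msmo1, Nsdhl, Hsd17b7, Insig1 and Scd2 to the higher genes, and Srebf1 was the lower one. With genes listed at 0 in any library left out, 12 of 25 were higher and 1 was lower, against 4.17% and 6.8% of all genes (11% in either direction). Median-of-ratios scaling put the median change of all genes at 0.01 and that of the tested genes at 0.91. It left 10 of the 28 genes higher, Acat2 among them, where 3.54% of all genes were higher, 1.67% lower and 5.21% either, which is 424 higher and 200 lower genes in place of 321 and 325. With gene values weighted by transcript length, an alternative added after the values were seen, 9 were higher, Acat2 among them, where 2.85% of all genes were higher, 2.75% lower and 5.6% either.

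The promoters of 6 genes are shown. Of these genes, 5 passed as higher, were above 0 in every library and have an entry in the RefSeq promoter table. The other is Srebf2, the gene of the sterol regulator itself, which did not pass. Each promoter is 300 bases long, from 250 before to 50 after the start of the gene. The build is RefSeq's GRCm38.p6, which is not the build of the expression files. The table held 25 of the 31 genes. Fdft1, Fdps, Sqle, Stard4, Scd1 and Scd2 were not among them. Capitals mark the CCAAT box (CCAAT, on either strand, so also ATTGG), which is bound by the factor NF-Y, and the core of the sterol response element (TCACCCCA, on either strand), at which SREBP proteins bind in known target promoters.
Mvk, chr5:114444019-114444318, plus strand: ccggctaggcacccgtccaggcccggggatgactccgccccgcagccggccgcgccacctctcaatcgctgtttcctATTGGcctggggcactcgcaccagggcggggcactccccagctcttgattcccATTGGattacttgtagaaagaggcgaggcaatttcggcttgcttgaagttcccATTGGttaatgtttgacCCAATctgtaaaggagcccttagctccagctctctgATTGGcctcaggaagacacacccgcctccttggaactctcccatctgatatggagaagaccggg
Pmvk, chr3:89454291-89454590, plus strand: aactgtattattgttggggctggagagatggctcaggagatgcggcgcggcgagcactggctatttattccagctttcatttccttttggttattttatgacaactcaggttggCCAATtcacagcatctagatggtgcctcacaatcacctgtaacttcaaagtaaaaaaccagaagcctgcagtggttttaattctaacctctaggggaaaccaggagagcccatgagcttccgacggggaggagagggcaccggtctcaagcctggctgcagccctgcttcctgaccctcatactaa
Idi1, chr13:8885356-8885655, plus strand: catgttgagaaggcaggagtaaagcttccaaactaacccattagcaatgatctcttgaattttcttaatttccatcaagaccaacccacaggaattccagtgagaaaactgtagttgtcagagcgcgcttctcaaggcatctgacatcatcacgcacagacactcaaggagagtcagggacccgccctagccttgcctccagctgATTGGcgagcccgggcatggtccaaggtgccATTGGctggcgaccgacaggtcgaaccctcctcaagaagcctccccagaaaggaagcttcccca
Lss, chr10:76531355-76531654, plus strand: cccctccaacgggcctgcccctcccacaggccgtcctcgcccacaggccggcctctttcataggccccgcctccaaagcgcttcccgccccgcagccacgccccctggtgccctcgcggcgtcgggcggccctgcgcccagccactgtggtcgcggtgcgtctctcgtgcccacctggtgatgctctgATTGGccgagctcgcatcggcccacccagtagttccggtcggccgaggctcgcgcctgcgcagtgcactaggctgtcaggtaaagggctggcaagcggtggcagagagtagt
Acss2, chr2:155517793-155518092, plus strand: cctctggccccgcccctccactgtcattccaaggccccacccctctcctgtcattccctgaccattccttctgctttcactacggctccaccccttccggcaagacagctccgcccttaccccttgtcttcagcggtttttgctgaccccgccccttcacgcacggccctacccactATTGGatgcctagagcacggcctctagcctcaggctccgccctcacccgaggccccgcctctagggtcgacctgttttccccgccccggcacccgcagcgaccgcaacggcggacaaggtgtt
Srebf2, chr15:82147019-82147318, plus strand: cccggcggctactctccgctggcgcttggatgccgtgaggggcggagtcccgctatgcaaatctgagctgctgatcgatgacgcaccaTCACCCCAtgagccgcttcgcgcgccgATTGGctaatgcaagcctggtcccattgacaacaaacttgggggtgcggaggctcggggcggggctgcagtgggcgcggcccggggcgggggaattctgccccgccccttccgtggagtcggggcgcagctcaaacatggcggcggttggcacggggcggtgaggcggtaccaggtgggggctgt

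Mvk had 5 CCAAT boxes, beginning 173, 120, 67, 50 and 14 bases before the start. Idi1 had 2, at 45 and 14 bases before it. Pmvk, Lss and Acss2 had 1 each, at 136, 62 and 73 bases before the start. The table holds another promoter of Pmvk, at chr3:89459321-89459620, which has 0 CCAAT boxes. Which of these promoters, if either, serves the measured form of Pmvk was not determined, as the builds differ. Pmvk counts below as a gene with the box through the promoter shown alone. In Srebf2 the box lay 135 bases and the sterol core 162 bases before the start. The CCAAT box was found for 21 of the 25 genes, in 22 of their 33 promoters (66.7%), against 37.4% of all 32851 promoters of the table. The GC box (GGGCGG, on either strand), bound by Sp1, was found for 21 genes and in 25 of the 33 promoters (75.8%), against 35.7% of all. Both stood together in 54.5% of the genes' promoters and 12.8% of all. The median GC content was 62.3% in the genes' promoters and 52.7% in all, and a GC box is more likely by composition alone in a promoter rich in G and C. The sterol core was in 2 promoters, those of Hmgcs1 and Srebf2 (6.06%, against 1.56% of all), and the looser TCACNCCAC in that of Hmgcs1 (3.03%, against 1.24%). The E-box CACGTG was in 6 promoters of 5 genes, Hsd17b7, Sc5d, Dhcr7, Insig1 and Scap (18.2%, against 7.15%). These are matches of letters in a window of fixed length.

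The levels of the 29 genes with a value are plotted along the route. By the mean over the 4 libraries, Msmo1, at 92.7 FPKM, and Sqle, at 86.4 FPKM, stood highest, followed by Fdps at 65.3, Ebp at 63.6 and Scd2 at 60.1 FPKM. The authors' interval around the most abundant form of a gene reached 6.29% of its value to either side (median; 2.16% to 13.7%), which covers counting error only.

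**Figure D1:**
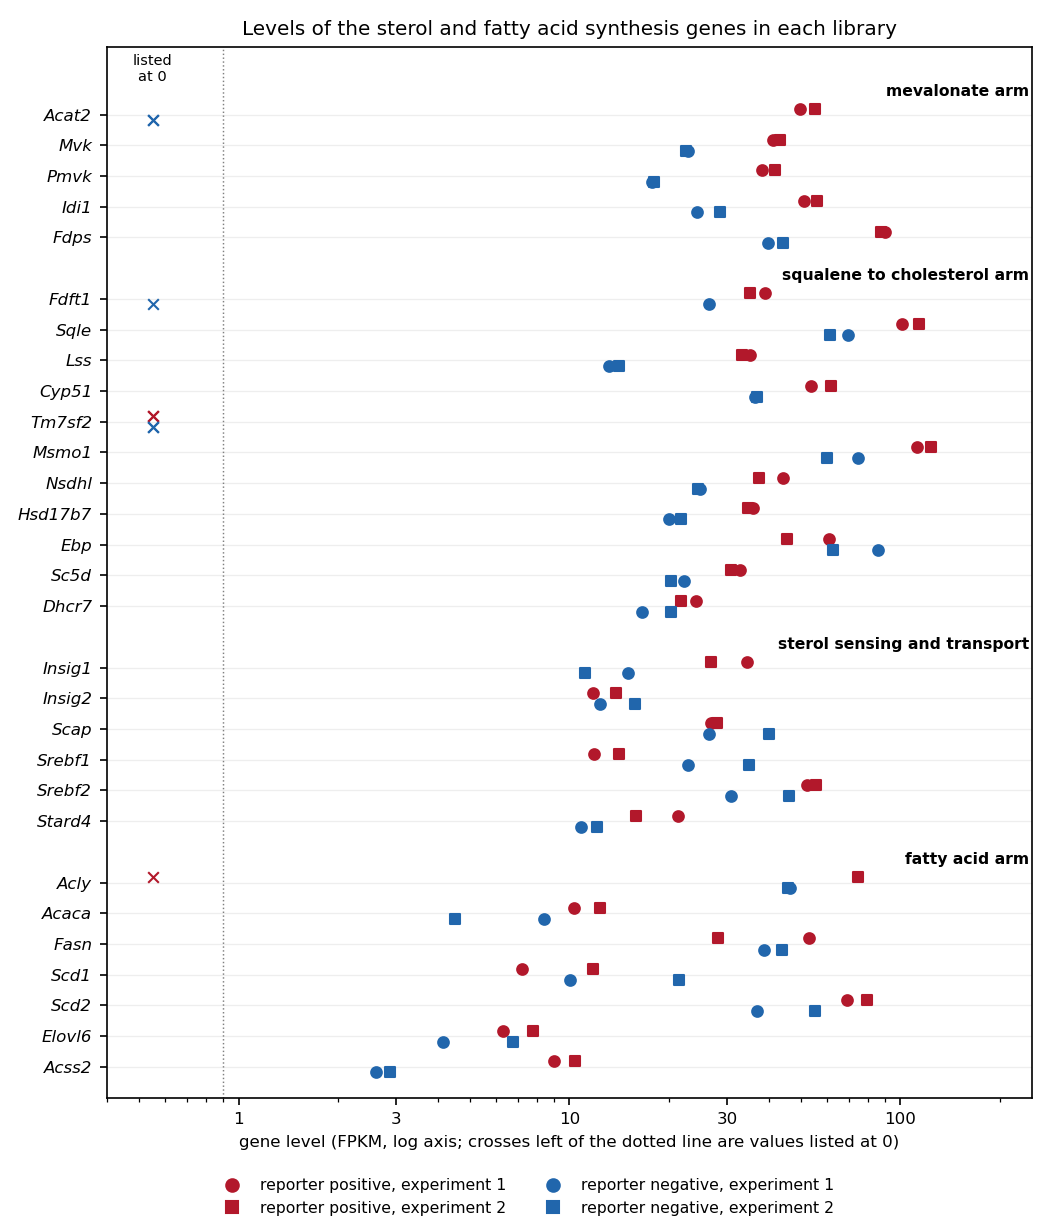
Gene level (FPKM, log axis) of the 29 genes with a value in each of the 4 libraries, ordered along the route within each arm. Red symbols are the reporter positive and blue symbols the reporter negative libraries, circles experiment 1 and squares experiment 2, and crosses are values listed at 0. The red symbols lie right of the blue ones for the 4 genes of the mevalonate arm that are above 0 in every library and left of them for Ebp and Srebf1.

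In the mevalonate arm, each of the 4 genes above 0 in every library was higher in reporter positive cells, where 2.43% of all such genes were. Its first gene, Acat2, encodes the cytosolic thiolase that joins acetyl-CoA units. Acat2 stood at 49.6 and 55.4 FPKM in the positive libraries and was listed at 0 in both negative ones (adjusted p = 0.00205). This contrast rests on the zeros. Of its 3 annotated forms, 2 were marked as having full read support in all 4 libraries. Yet the coverage of its forms was given as 178 and 184 in the positive and 0 in both negative libraries, and no upper bound of a form exceeded 0.145 FPKM there. The whole value came from 1 form, ENSMUST00000007005 (2250 bases, 9 exons, chromosome 17, 13135756 to 13153613 in mm9, minus strand). Of all genes tested, 469 were listed at 0 in at least 1 library. A 0 beside a mark of full read support can be a failed estimate, so no fold is given for Acat2. Acat3, its close relative on the same chromosome, was listed at 0 in all 4 libraries.

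Mvk encodes mevalonate kinase, which adds the first phosphate to mevalonate. Its level was 41.1 and 43.3 FPKM in the positive libraries, against 22.9 and 22.5 FPKM in the negative ones (change 0.87 ± 0.13 SE, adjusted p = 0.0385). The gene spans positions 114894278 to 114910600 of chromosome 5 (mm9), and its RNA was divided between ENSMUST00000043760, with 11 exons, and assembled forms with 12 exons. The annotated form alone was at 11.3 and 18.1 FPKM in the positive libraries and 7.64 and 6.76 FPKM in the negative ones.

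Pmvk encodes phosphomevalonate kinase, the next step. It stood at 38.3 and 41.8 FPKM in the positive libraries and 17.82 and 18.04 FPKM in the negative ones, a ratio of means of 2.23 (change 1.11 ± 0.14, adjusted p = 0.0266). In every library all of it came from ENSMUST00000029564 (5 exons, 1194 bases, chromosome 3, 89263040 to 89272935), so its value does not depend on how forms are added up. The gap between the groups was far wider than that between the libraries of a group.

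Idi1, whose product turns isopentenyl diphosphate into its reactive isomer, was at 51.1 and 56.1 FPKM in the positive libraries and 24.4 and 28.6 FPKM in the negative ones (change 0.99 ± 0.15, adjusted p = 0.0392). It too came from a single annotated form in every library, ENSMUST00000077950 (5 exons, chromosome 13, 8884852 to 8891641). Fdps encodes farnesyl diphosphate synthase, which chains the isoprenoid units. Fdps reached 89.9 and 87.6 FPKM in the positive libraries, against 39.7 and 44.2 FPKM in the negative ones (change 1.06 ± 0.13, adjusted p = 0.0273). Its main form has 10 exons (ENSMUST00000081848, chromosome 3, 88897514 to 88905881, minus strand). Over the 4 genes above 0 in every library, the ratio of means lay between 1.86 for Mvk and 2.23 for Pmvk, a narrow range, and the median change was 1.03.

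The squalene to cholesterol arm had 9 genes above 0 in every library. Of these, 1 passed as higher, 0 as lower and 8 did not pass. The positive libraries were above the negative ones for 8 and below for 1. Over all genes above 0 in every library, 2.43% passed as higher and 2.46% as lower, and 15.1% lay above and 43.4% below. The median change of the 9 genes was 0.70. Lss, which encodes lanosterol synthase and closes the ring, was the gene that passed. It stood at 35.1 and 33.2 FPKM in the positive libraries, against 13.2 and 14.1 FPKM in the negative ones (change 1.26 ± 0.14, adjusted p = 0.0213). Its forms in all libraries have 22 exons on chromosome 10, start at position 75994352 or 75994357, and end at different places. The shorter assembled forms held 29.1 and 16.3 FPKM in the positive and 9.23 and 8.81 FPKM in the negative libraries. Weighted by length, Lss was at 16.5 and 17.2 FPKM in the positive and 7.03 and 6.25 FPKM in the negative libraries (change 1.22, adjusted p = 0.0234).

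Fdft1 encodes squalene synthase, the branch point into sterols. It was at 39.0 and 35.2 FPKM in the positive libraries, and at 26.4 FPKM and listed at 0 in the negative ones (adjusted p = 0.309). Its form had no mark of full read support in any library, and in the library at 0 its upper bound was 0.0198 FPKM. Of that form's 2860 bases, 769 lie opposite exons of Ctsb, a lysosomal protease gene on the other strand, which stood at 234 and 115 FPKM in the positive and 310 and 303 FPKM in the negative libraries. The sources used here do not say whether reads were counted by strand, so reads of the overlap may belong to either gene.

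Sqle, the gene of squalene epoxidase, was at 101 and 114 FPKM in the positive libraries and 69.6 and 61.5 FPKM in the negative ones, without overlap (change 0.70 ± 0.15, adjusted p = 0.0662, and 0.0418 with the block). Msmo1, which encodes a sterol methyl oxidase, had 112 and 124 FPKM in the positive libraries, against 74.4 and 60.1 FPKM in the negative ones (change 0.81 ± 0.16, adjusted p = 0.0619, and 0.0388 with the block). Cyp51 encodes the lanosterol demethylase. Its level was 53.8 and 61.6 FPKM in the positive and 36.3 and 37.0 FPKM in the negative libraries (change 0.64 ± 0.14, adjusted p = 0.0736, and 0.042 with the block). From annotated forms alone Cyp51 stood at 19.9 and 17.3 FPKM in the positive and 30.5 and 16.0 FPKM in the negative libraries, so that its change turned to -0.25, and the remainder lay on assembled forms.

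Nsdhl and Hsd17b7 encode the dehydrogenase and the ketoreductase that follow in the removal of methyl groups. Their changes were 0.70 ± 0.15 and 0.73 ± 0.14, with adjusted p = 0.069 and 0.0554, and both passed with the block, at 0.0416 and 0.0376. Sc5d, the lathosterol desaturase gene, had 32.7 and 30.8 FPKM in the positive and 22.2 and 20.2 FPKM in the negative libraries (change 0.56 ± 0.14, adjusted p = 0.0939). Dhcr7, whose product makes the final reduction to cholesterol, stood at 24.2 and 21.7 FPKM in the positive and 16.6 and 20.3 FPKM in the negative libraries (change 0.31 ± 0.17, adjusted p = 0.319). Tm7sf2, a sterol reductase gene, was listed at 0 in all 4 libraries, although between 3 and 8 of its 15 forms had a mark of full read support in each. It was not tested.

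Ebp was the gene of this arm that lay the other way. It encodes the sterol isomerase that moves a double bond in the ring. Ebp was at 60.8 and 45.6 FPKM in the positive libraries and 85.8 and 62.4 FPKM in the negative ones. Each positive library was below both negative ones, if narrowly for experiment 1 of the positive and experiment 2 of the negative libraries. The ratio was 0.708 in experiment 1 and 0.731 in experiment 2, and the change of -0.47 ± 0.23 did not pass (adjusted p = 0.278, and 0.0646 with the block). Weighted by length, the change was -0.50 (adjusted p = 0.0925, and 0.0397 with the block).

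**Figure D2:**
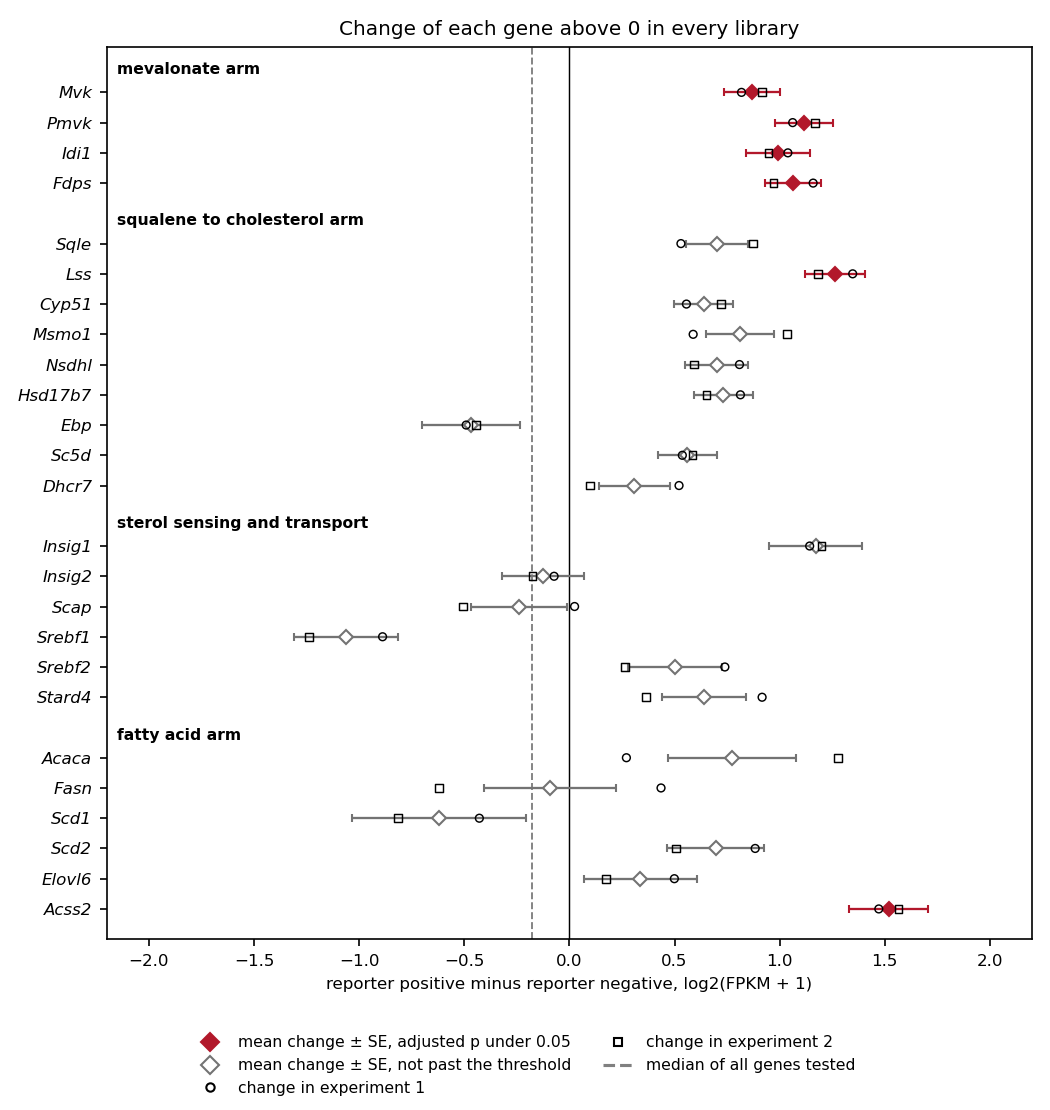
Change of the 25 genes above 0 in every library (x axis, mean log2(FPKM + 1) of positive less that of negative libraries). Diamonds are the mean change ± SE, red where limma's adjusted p was under 0.05, open circles and squares are experiments 1 and 2, and the dashed line is the median of all genes tested (-0.18). A small spread between libraries helps a gene to pass, so close experiments among the red genes are no separate result. The experiments also lie close for some genes that did not pass, such as Sc5d (0.54 and 0.59). For Fasn and Scap they lie on opposite sides of 0.

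Of the 6 genes of sterol sensing and transport, none passed in either direction. Over all genes, 5.4% passed in either direction, and here 2 of the 6 did with the block, where 11.9% of all genes did. Insig1 encodes the sterol sensor that holds SCAP in the endoplasmic reticulum and is itself a known SREBP target. It stood at 34.4 and 26.8 FPKM in the positive libraries, against 15.0 and 11.1 FPKM in the negative ones, a ratio of means of 2.34 (change 1.17 ± 0.22, adjusted p = 0.0548, and 0.0164 with the block). Insig2, its relative with the same role, had 11.8 and 13.9 FPKM in the positive and 12.4 and 15.8 FPKM in the negative libraries, and the groups overlapped (change -0.12 ± 0.19, adjusted p = 0.731).

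The changes of the 2 SREBP genes lay on opposite sides of 0, except from annotated forms alone and from the most abundant form, where that of Srebf2 was -0.041. Srebf2, which mainly drives sterol synthesis, was at 52.2 and 55.7 FPKM in the positive libraries and 30.8 and 46.2 FPKM in the negative ones (change 0.50 ± 0.22, adjusted p = 0.239). Short forms, of under 50% of the longest annotated transcript, held 17.7 and 16.7 FPKM of it in the positive and none in the negative libraries. Its long forms were at 34.5 and 39.0 FPKM in the positive and 30.8 and 46.2 FPKM in the negative libraries, which overlap. Srebf1, which mainly drives fatty acid synthesis, had 11.8 and 14.2 FPKM in the positive and 22.7 and 34.8 FPKM in the negative libraries. Both positive libraries lay below both negative ones, with a ratio of 0.520 in experiment 1 and 0.407 in experiment 2 (change -1.06 ± 0.25, adjusted p = 0.0822, and 0.0256 with the block).

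Scap, the escort of SREBP proteins, was at 26.8 and 27.8 FPKM in the positive and 26.4 and 40.0 FPKM in the negative libraries (change -0.24 ± 0.23, adjusted p = 0.553). Stard4, a cytosolic sterol carrier, was at 21.3 and 15.9 FPKM in the positive and 10.8 and 12.1 FPKM in the negative libraries (change 0.64 ± 0.20, adjusted p = 0.137). The groups overlapped for Scap and not for Stard4.

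The fatty acid arm was mixed. Of its 7 genes, 1 passed as higher, 0 as lower and 6 did not pass, where 2.68% of all genes tested were higher and 2.71% lower. The groups overlapped for 4. The positive libraries lay above the negative ones for 3 and below for 0, where 15.2% and 42.7% of all genes tested did. The median change of the 6 genes above 0 in every library was 0.52. Acss2, which makes acetyl-CoA from acetate in cytosol and nucleus, had the widest ratio of all genes above 0 in every library here, 3.55 between the means. Acss2 was at 8.98 and 10.4 FPKM in the positive libraries, against 2.60 and 2.86 FPKM in the negative ones (change 1.52 ± 0.19, adjusted p = 0.0266). All of it came from ENSMUST00000029135 (18 exons, chromosome 2, 155343684 to 155388482). Acly, the citrate lyase that makes acetyl-CoA from citrate, was listed at 0 and stood at 74.7 FPKM in the positive libraries of experiments 1 and 2, against 46.3 and 45.7 FPKM in the negative ones (adjusted p = 0.492). In the library at 0, 7 of its 9 forms had a mark of full read support while the upper bound was also 0, and no fold is given.

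Acaca and Fasn encode the enzymes that commit acetyl-CoA to fatty acids and build the chain. Acaca was at 10.3 and 12.4 FPKM in the positive libraries and 8.38 and 4.50 FPKM in the negative ones (change 0.78 ± 0.30, adjusted p = 0.199). Fasn was at 52.9 and 28.2 FPKM in the positive and 38.9 and 43.9 FPKM in the negative libraries, and the groups overlapped (change -0.09 ± 0.31, adjusted p = 0.883). Both values mix long transcripts with short fragments that were assembled at the end of the gene in some libraries and not in others. A short form of Fasn held 24.1 FPKM in the positive library of experiment 1 and none in that of experiment 2, against 25.2 and 21.98 FPKM in the negative libraries. The long forms of Fasn stood at 28.8 and 28.2 FPKM in the positive libraries, against 13.7 and 21.9 FPKM in the negative ones, without overlap. Short forms of Acaca held 9.71 and 10.7 FPKM in the positive libraries, and 7.36 FPKM and none in the negative ones. Weighted by length, the change was 0.48 for Fasn (adjusted p = 0.191) and 0.07 for Acaca (adjusted p = 0.876), so the direction of Fasn turned and the difference of Acaca nearly vanished, and neither passed. With long forms in place of sums, Insig1 stood at 23.2 and 18.3 FPKM in the positive and 15.0 and 11.1 FPKM in the negative libraries, still without overlap.

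**Figure D3:**
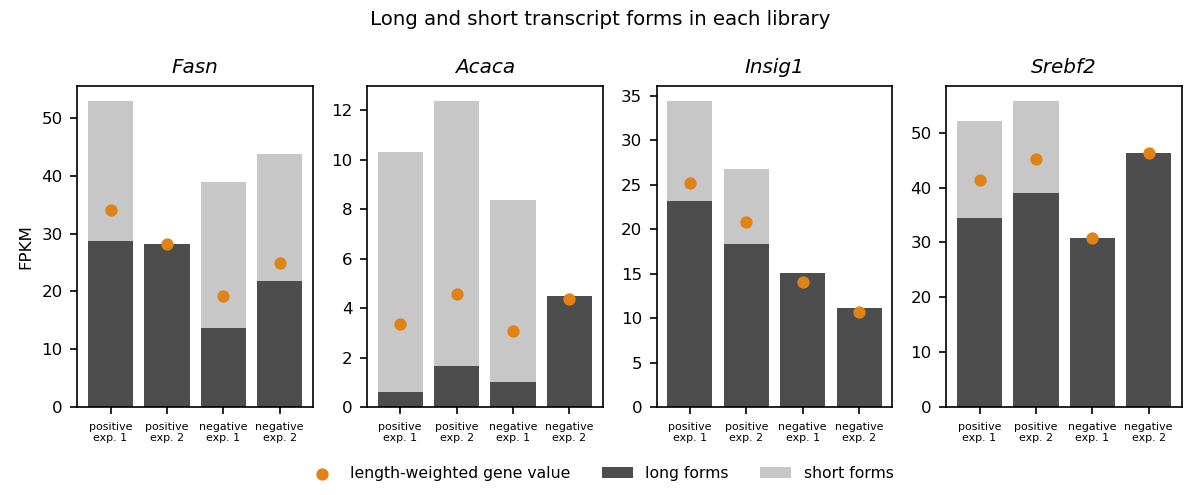
FPKM of long transcript forms (dark bars, at least 50% of the longest annotated transcript) and short forms (light bars, stacked on top) of Fasn, Acaca, Insig1 and Srebf2 in the reporter positive and reporter negative libraries. Orange points are the gene value weighted by length. Short forms hold 24.1 FPKM of Fasn in 1 positive library and none in the other, and in Srebf2 they appear in both positive libraries and in neither negative one.

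Among the enzymes that finish fatty acids, Scd2 and Scd1, which encode desaturases, pointed apart. Scd2 had 68.9 and 79.1 FPKM in the positive and 36.9 and 55.4 FPKM in the negative libraries (change 0.70 ± 0.23, adjusted p = 0.15, and 0.0474 with the block). Scd1 had 7.198 and 11.7 FPKM in the positive and 10.03 and 21.4 FPKM in the negative libraries, with overlap between the groups (change -0.62 ± 0.41, adjusted p = 0.399). They are close relatives on chromosome 19, and how reads were divided between them was not tested. Elovl6, which lengthens saturated chains, was at 6.28 and 7.77 FPKM in the positive and 4.15 and 6.77 FPKM in the negative libraries (change 0.34 ± 0.27, adjusted p = 0.48). The difference between these genes' changes was not tested.

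Other genes of lipid metabolism were read in the same fit, where 2.68% of all genes tested were higher and 2.71% lower. Among other sterol synthesis enzymes, 0 of 5 tested genes passed. Lbr, a sterol reductase, which also sits in the nuclear envelope, had 11.7 and 14.7 FPKM in the positive and 22.05 and 25.8 FPKM in the negative libraries (change -0.82 ± 0.18, adjusted p = 0.0785, and 0.0336 with the block).

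For sterol uptake, release and storage, 0 of 14 passed, and the median change was -0.15. Mylip, which encodes the ubiquitin ligase that removes the LDL receptor, was at 1.87 and 4.13 FPKM in the positive and 8.30 and 11.8 FPKM in the negative libraries (adjusted p = 0.0826, and 0.0196 with the block). Abca1, the exporter of cholesterol and like Mylip a known target of the sterol receptors LXR, was at 0.913 and 1.53 FPKM in the positive and 2.10 and 3.999 FPKM in the negative libraries (adjusted p = 0.186). For the processing of SREBP proteins 0 of 6 passed. Rnf145, a ubiquitin ligase of the endoplasmic reticulum, had a change of -0.73 ± 0.19 (adjusted p = 0.103), and with the block it was lower, at adjusted p = 0.0393.

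Of 16 other genes of fatty acid synthesis and modification above 0 in every library, 5 passed as higher, 0 as lower and 11 fell short of the threshold, where 2.43% and 2.46% of all such genes were higher and lower. Elovl4 makes the very long chains of the skin barrier. It was at 94.7 and 109 FPKM in the positive libraries, against 21.0 and 18.1 FPKM in the negative ones, a ratio of means of 5.20 (change 2.32 ± 0.16, adjusted p = 0.00922). Elovl1, another elongase of very long chains, was at 136 and 137 FPKM in the positive and 54.4 and 62.8 FPKM in the negative libraries (change 1.21 ± 0.14, adjusted p = 0.0232). Me1, the malic enzyme that supplies NADPH for synthesis, was at 17.6 and 16.8 FPKM in the positive and 4.93 and 6.50 FPKM in the negative libraries (change 1.45 ± 0.19, adjusted p = 0.0307). Oxsm, of mitochondrial fatty acid synthesis, was listed at 0 in both positive libraries and stood at 1.59 and 2.40 FPKM in the negative ones (adjusted p = 0.0352). Its call rests on these zeros, so it is outside that count, and no fold is given. Mid1ip1 and Mlx, named because they complete the count, also passed. Mid1ip1, an activator of acetyl-CoA carboxylase, had a change of 0.998 ± 0.167 (adjusted p = 0.0455). Mlx, the partner of the glucose sensing factors ChREBP and MondoA, had a change of 0.79 ± 0.14 (adjusted p = 0.0498).

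In fatty acid activation and glycerolipid synthesis, 2 of 14 genes were higher and 0 lower, where 2.68% and 2.71% of all genes tested were. Agpat3, an acyltransferase of phospholipid synthesis, was at 67.7 and 69.6 FPKM in the positive libraries, against 19.1 and 17.95 FPKM in the negative ones (change 1.83 ± 0.13, adjusted p = 0.00992). Dgat2, which makes the last step to triglyceride, was at 29.2 and 33.9 FPKM in the positive and 9.21 and 6.88 FPKM in the negative libraries (change 1.85 ± 0.20, adjusted p = 0.0188). In fatty acid breakdown 0 of 11 passed. Ehhadh, of peroxisomal oxidation, was at 0.513 and 0.745 FPKM in the positive and 1.71 and 2.01 FPKM in the negative libraries (adjusted p = 0.0941), and Acadm, of mitochondrial oxidation, had a change of -0.61 ± 0.18 (adjusted p = 0.117). Whether these lists differ from one another was not tested.

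**Figure D4:**
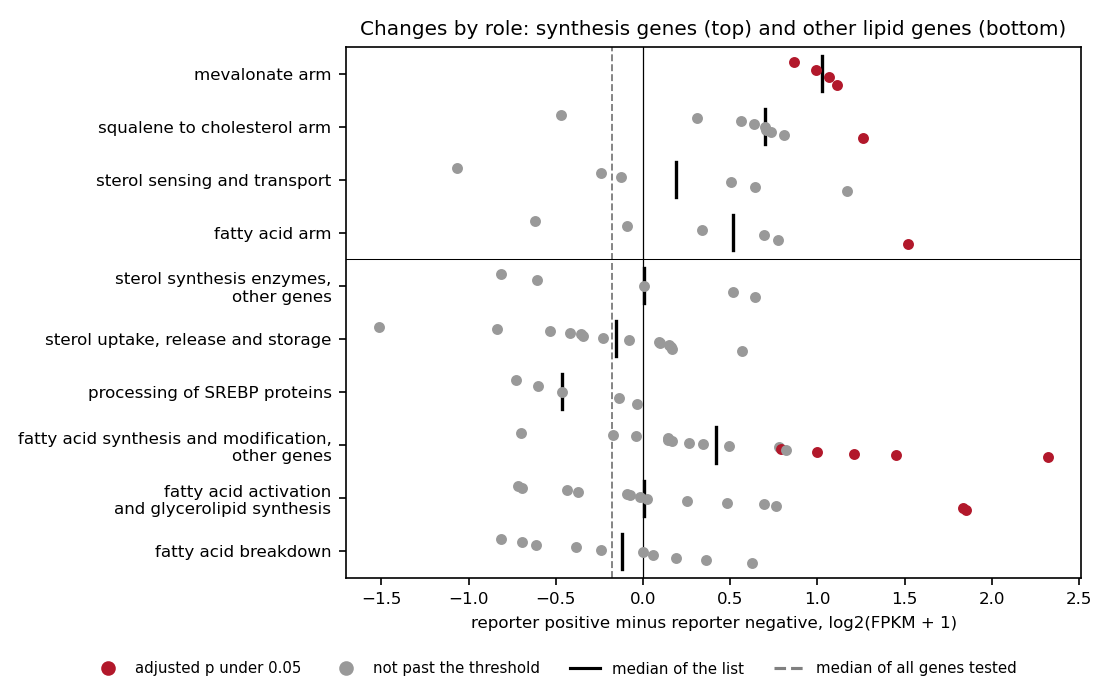
Changes of single genes (points, mean log2(FPKM + 1) of positive less that of negative libraries) in the 4 arms above the line and in 6 lists of other lipid genes below it, for genes above 0 in every library. Red points have a limma adjusted p under 0.05, black bars are list medians and the dashed line is the median of all genes tested (-0.18). The median is 1.03 in the mevalonate arm and -0.12 in fatty acid breakdown.

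Markers of other cell types were read beside these results. Over all genes tested, 2.68% were higher and 2.71% lower, and 4.45% and 7.43% with the block. Of 9 measured genes of keratinocyte differentiation, 7 were higher and 0 lower (7 and 0 with the block). Their summed levels were 4088 and 4435 FPKM in the positive and 1128 and 1093 FPKM in the negative libraries. Much of that gap was Sprr1a, at 2331 and 2209 FPKM in the positive and 296 and 89.2 FPKM in the negative libraries. Krt10 and Lor overlapped between the groups. Of 6 basal keratinocyte genes 1 was lower (4 with the block), with sums of 710 and 746 FPKM in the positive and 1450 and 1643 FPKM in the negative libraries. Integrin α6 of the gate (Itga6), which is among these basal genes, was at 181 and 205 FPKM in the positive and 331 and 410 FPKM in the negative libraries. It did not pass (adjusted p = 0.0548, and 0.0156 with the block). Cd44, the other gene of the gate, was at 88.0 and 128 FPKM in the positive and 81.5 and 112 FPKM in the negative libraries, with overlap. Sebocytes, the lipid-making cells of skin glands, had marker sums of 5.82 and 6.62 FPKM in the positive and 1.16 and 0.935 FPKM in the negative libraries. Most of that sum was Cidea, a lipid droplet protein, at 4.31 and 5.04 FPKM in the positive libraries and listed at 0 in the negative ones. The sebocyte receptor gene Mc5r was at most 0.0306 FPKM and Far2 was listed at 0 in all 4. Adipocyte markers summed to 1.09 and 0.9998 FPKM in the positive and 2.66 and 2.72 FPKM in the negative libraries, with 2 of 8 at 0 in every library, 7 of 8 under 1 FPKM in every library, and Lpl at 0.985 and 0.977 FPKM in the positive and 2.55 and 2.69 FPKM in the negative libraries. Of 8 cycling genes 2 were lower (6 with the block), with sums of 404 and 345 FPKM in the positive and 551 and 610 FPKM in the negative libraries. Fibroblast markers summed to 13.4 and 29.5 FPKM in the positive and 42.4 and 74.2 FPKM in the negative libraries, and much of that gap was Thy1, at 0.521 and 1.80 FPKM in the positive and 15.2 and 32.5 FPKM in the negative libraries, while Dcn and Lum overlapped between the groups. Leukocyte markers summed to 6.89 and 13.2 FPKM in the positive and 5.49 and 6.81 FPKM in the negative libraries, and endothelial markers to 3.34 and 3.24 FPKM in the positive and 5.36 and 12.2 FPKM in the negative ones. Epithelial markers summed to 246 and 276 FPKM in the positive and 218 and 256 FPKM in the negative libraries, but single genes pointed apart. Of 5 tested, 1 was higher and 0 lower (1 and 1 with the block). Esrp2 was the higher one (adjusted p = 0.0434). Epcam, at 29.4 and 25.5 FPKM in the positive and 45.9 and 51.0 FPKM in the negative libraries, was lower with the block (adjusted p = 0.0376). The part of these cell states in the lipid results was not tested, and fewer cells of a type cannot be told apart from less RNA per cell in such bulk libraries.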

How the data were processed

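Libraries of sorted tumour stem cells were prepared with the Illumina mRNA chemistry, per the labels' protocols, and 2 reporter positive and 2 reporter negative libraries were compared. Per the submitters' processing notes, the authors used TopHat, Cufflinks and the build mm9, in versions that the sources used here do not give. The deposited files give an FPKM value with its interval, coverage and read support for each annotated or assembled transcript, per the file headers. As FPKM is normalized, count models were left out.

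Transcripts of at least 200 exonic bases were summed per gene with Python 3.11.15 and pandas 2.3.3. Of 96734 reference transcripts, 84047 were named by transcript ID through GENCODE M21, used for names only, and 5138 by the gene ID in the files. The other 7549 and the assembled transcripts went to the gene holding at least 50% of their exonic length on the same strand. Aligned bases, as coverage over FPKM, came to 3.63 and 3.36 gigabases in the positive and 3.21 and 3.83 in the negative libraries. Of the tested genes, 469 were listed at 0 in at least 1 library.

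Genes reaching 1 FPKM in 2 or more libraries were tested on log2(FPKM + 1) with limma 3.58.1 in R 4.3.3 (eBayes with trend, two-sided, Benjamini-Hochberg over 11973 genes, threshold 0.05). The method was also run on simulated data, which left out genes listed at 0 and held no effect of the experiment. That run therefore cannot speak for calls that rest on zeros or for the block. The experiment numbers in the titles were read as a pairing of the libraries. Differences between experiments correlated across genes between the fractions with r 0.172 and rho 0.378 (r 0.310 among genes above 0). As no study method with a block was given, the fit reported has none, and the block is an alternative. Alternatives changed the pseudocount, the filter, the scaling, the choice of transcripts, the variance estimate, the block and the libraries. The 31 genes, the other lists and the tests were chosen with earlier results of these data known. All 31 genes were named, and of each other list the genes past the threshold (at most 4, smallest p first) or else the 2 with the smallest p, some of which are not reported here.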

Additional observations from a re-analysis of the deposited data

How the results depend on the processing

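Over 25 genes and 18 alternatives, 335 of 450 values kept their direction and their side of the threshold, 52 passed the threshold newly, 43 no longer passed it and 20 turned round. In the fit reported, 7 of the 28 genes and 646 of all 11973 genes tested passed the threshold. These numbers were 1 and 4 without a filter on low values, and 1 and 95 from reference transcripts alone. From each gene's most abundant transcript they were 1 and 54. The 1 gene was Acat2 in each of these fits, on its zeros. The number of genes tested differs where the filter or the gene values differ. Without genes listed at 0, 13 of 25 genes and 1262 of 11504 passed. With robust variance estimation it was 11 and 1002. With the replicate block it was 15 and 1422 (11.9% of all genes). With the block and without genes listed at 0 it was 20 of 25 and 3322 of 11504. It was 17 and 1883 (of 11812) with the block and length-weighted values, and 7 and 374 with the block and median-of-ratios scaling. Leaving out 1 library gave 0 to 2 genes, and 3 to 191 of all genes, with the lowest of both without reporter negative replicate 2; the lone library of a group is then assumed to vary like the other group. It was 2 and 191 without reporter negative replicate 1, 1 and 86 when positive replicate 1 was left out, and 2 and 52 when positive replicate 2 was. Scaling by the median of ratios moved the median of all genes to 0.01, and calls among all genes to 424 higher and 200 lower.

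The median change of the genes was 0.91 with median-of-ratios scaling (with or without the block), 0.80 with quantile normalization, 0.52 from reference transcripts, 0.57 from the most abundant one and 0.62 with length-weighted values (with or without the block), and 0.64 to 0.72 with 1 library left out. Insig2 turned to 0.078 with median-of-ratios scaling (with or without the block), 0.054 with quantile normalization and 0.12 with reference or most abundant transcripts. Fasn turned to 0.12 with median-of-ratios scaling (with or without the block), 1.25 with reference or most abundant transcripts and 0.48 with length-weighted values (with or without the block). With reference or most abundant transcripts, Cyp51 turned to -0.25 and Srebf2 to -0.041, and Acaca to -0.011 and -0.35. With 1 library left out, Insig2 ranged from -0.29 to 0.037, Scap from -0.53 to 0.050 and Fasn from -0.53 to 0.35. The cause of these shifts was not tested. With 2 libraries a group, a change short of the threshold may still be present.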
